A study of Mus musculus with 12 samples.

Results

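The 40 genes described here build or mark motile cilia and the ependyma, the ciliated epithelium that lines the brain's ventricles. They are a named list of genes, and each was looked up by symbol in a table of read counts for 55421 genes. All 40 were found, 2 of them under an older symbol (Dnaic1 for Dnai1 and Dnaic2 for Dnai2). All 40 passed the filter on low counts and are among the 20015 genes tested. The list was chosen by measured values of these same libraries, their counts across the groups, so no comparison below is independent of how the genes were picked. Calls and counts of calls are given as descriptions of the list.

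The 12 libraries are polyA RNA-seq of prefrontal tissue from wild-type male C57BL/6 mice aged 10 to 12 weeks. Every mouse, controls included, had undergone auditory fear conditioning with 3 pairings of a tone and a 0.7 mA foot shock. Mice were injected intraperitoneally with 40 µg per kg of dexmedetomidine (Dex, a sedative agonist of alpha2 adrenergic receptors), at 10 ml per kg, or with that volume of saline, and tissue was collected 2 h after training. The groups hold 3 libraries each: prelimbic cortex with saline (PL saline), prelimbic with Dex (PL Dex), infralimbic with saline (IL saline) and infralimbic with Dex (IL Dex). The 6 infralimbic libraries are named so in their titles, whereas the extraction protocol names prelimbic tissue for all 12, and the titles were followed. The labels number the libraries of a group 1, 2 and 3 and call that number a batch. Whether each library is a different mouse is not said, and the spread that the p-values rest on may therefore be partly technical.

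Motile cilia beat because dynein motors on paired microtubules slide against their neighbours. Outer and inner dynein arms supply the force, radial spokes and the central pair apparatus regulate it, and a nexin link with its regulatory complex turns sliding into bending. In the brain such cilia are carried in tufts by ependymal cells and move the cerebrospinal fluid, while neurons and astrocytes carry a single primary cilium without this motor apparatus. The transcription factor Foxj1 switches on the genes of motile cilia together with factors of the RFX family.

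Library totals ran from 5419187 to 16530596 counts, and levels are given as CPM, read counts scaled to a common library size after TMM normalization. The 40 genes together took 345.1 to 469.8 CPM in the 6 PL libraries and 535 to 672.5 CPM in the 6 IL libraries. Libraries differed within each region in a way that followed gene base composition. Over 19279 genes, the deviation of a library from the mean of the 6 PL libraries had a Spearman correlation with gene GC content of 0.445 and 0.342 in PL Dex 1 and 2, −0.398 and −0.52 in PL saline 1 and 2, and 0.00167 and 0.00897 in the libraries numbered 3. Against the mean of the 6 IL libraries it was −0.234, −0.119 and 0.31 in IL Dex 1, 2 and 3. In IL saline 1, 2 and 3 it was −0.14, 0.0305 and 0.218. The 40 genes have a median GC content of 50.4% (36.3% to 63.9%), against 48.4% for all genes tested.

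Per kilobase of exon, the levels of the 40 genes were far from even. Rfx3 led with 15.5 CPM per kb over the 12 libraries, followed by Crocc at 6.84, Drc1 at 4.63, Ccdc39 at 4.30 and Cfap54 at 1.92 CPM per kb. Foxj1 was at 1.42 CPM per kb and Spag17, the lowest, at 0.104. All 40 genes had counts in each of the 6 IL libraries, down to 1 count of Tekt1 in IL Dex 1. The genes were chosen with these counts known, so detection in IL does not test the name of the list. The IL saline libraries also held more counts than those of PL saline (40936168 against 24419523). In PL some of the list's ependymal markers were at or near 0: Ccdc153, Tmem212 and Ccdc180 had 0 counts in all 3 PL saline libraries. Others were not, with 47 counts of Foxj1, 29 of Rsph1 and 12 of Tekt1 over those libraries. Per kilobase of exon, the highest levels in PL saline and in PL Dex were those of Rfx3, Ccdc39, Drc1 and Crocc.

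The main difference lay between regions. In saline mice, edgeR called 27 of the 40 genes lower in PL than in IL, where 8.7% of all genes tested were called lower, and 1 gene higher, where 9.97% of all genes were. The 40 genes had a median log2 difference (PL minus IL) of −1.34, against −0.025 for all genes tested, and 39 of the 40 were below 0. For 32 of the 40 the 3 PL saline libraries all lay below the 3 IL saline libraries, which held for 20.2% of all genes. In Dex mice 12 of the 40 were called lower in PL (3.54% of all genes) and 0 higher (3.8% of all genes), with a median of −0.73 against −0.01, and 19 of the 40 had PL Dex libraries all below the IL Dex libraries (10.8% of all genes). In either direction 28 were called with saline (18.7% of all genes) and 12 with Dex (7.34%). At an unadjusted p under 0.05 there were 31 with saline (32.6% of all genes), 30 of them lower in PL (16.2%), and 23 with Dex (19.8%), all 23 lower in PL (9.7%). Between same-numbered libraries, 37 were lower in PL in all 3 pairs with saline (29.9% of all genes) and 27 with Dex (18.4%). The medians are the same with genes at 0 counts in PL set to the bounds given below. Gene GC content had a Spearman correlation with the region difference of −0.419 over all genes tested with saline and −0.051 with Dex. Over the 40 genes it was −0.092 and 0.09. With a correction for GC content the medians of the 40 were −1.114 with saline and −0.734 with Dex, and the part of GC content was not tested further. The lists of genes called lower share 10 genes, which are 37% of the 27 and 83.3% of the 12: Ccdc153, Ccdc180, Tmem212, Wdr49, Hydin, Dnah1, Dnah3, Dnah6, Dnah11 and Dnah12. In bulk tissue, fewer cells of a type and less RNA per cell cannot be told apart.

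Some of the 40 genes were tested only because of their level in IL, which favours a lower value in PL, so the counts by filter are a description. The level the filter asks for is about 1.2 CPM, and 12 of the 40 genes reached it only through IL. Of those 12, 10 were called lower in PL with saline and 5 with Dex. The other 28 reached it in both regions, and 17 and 7 of these were called lower.

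**Figure D1:**
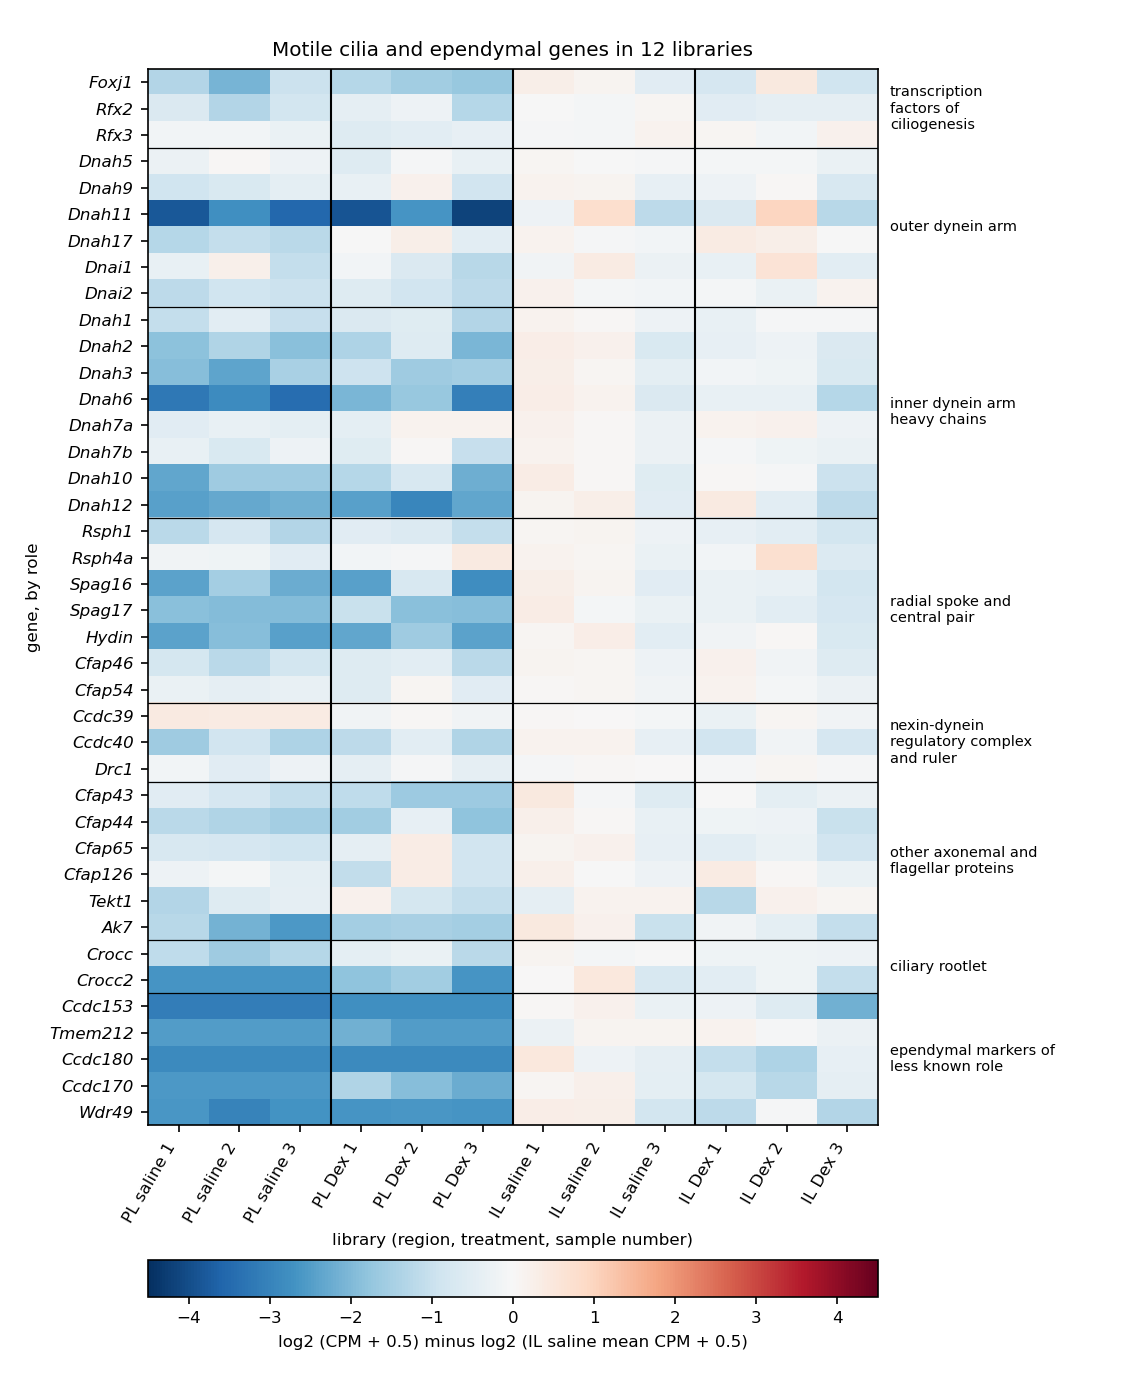
Level of each of the 40 genes (rows, by role) in each of the 12 libraries (columns), as log2 of CPM + 0.5 minus the same for the gene's IL saline mean; blue is lower and red is higher. The 6 PL columns are blue for most rows, dark for Dnah11, Dnah6, Dnah12, Crocc2 and the 5 ependymal markers at the bottom, and near white for Rfx3, Dnah5 and Drc1.

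Among the transcription factors, Foxj1 and Rfx2 were called lower in PL in saline mice, and Rfx3 in Dex mice. Foxj1 (ENSMUSG00000034227, chromosome 11, 116330704 to 116335399, minus strand of GRCm38), the forkhead factor of motile ciliogenesis, was at 2.13, 1.05 and 2.90 CPM in PL saline, 2.18, 1.74 and 1.49 in PL Dex, 7.47, 6.64 and 4.11 in IL saline and 3.38, 8.40 and 3.04 in IL Dex, in the order of library numbers here and below. The PL libraries lay below the IL libraries in both treatments. The log2 difference was −1.57, SE 0.40 with saline (edgeR adjusted p 0.0106) and −1.43, SE 0.43 with Dex, just short of the threshold (edgeR adjusted p 0.0505). The saline call was lost without PL saline 2 (edgeR adjusted p 0.0755) and with a correction for GC content (0.0529).

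Rfx2, an RFX factor active in multiciliated cells, was at 2.58, 1.41 and 2.17 CPM in PL saline, 3.13, 3.63 and 1.49 in PL Dex, 4.23, 4.01 and 4.64 in IL saline and 2.85, 3.15 and 3.14 in IL Dex. It was called lower in PL saline (−1.08, SE 0.33, edgeR adjusted p 0.0271), but not in 5 of the 12 fits that each left out 1 library, those without any one of the IL saline libraries or without PL saline 2 or 3 (edgeR adjusted p 0.0559 to 0.148), nor with the GC correction (0.0656). With Dex its regions overlapped. Rfx3, which also acts in cells without motile cilia, had the highest level of the 40 genes, at 174, 173 and 154 CPM in PL saline, 124, 135 and 145 in PL Dex, 180, 176 and 207 in IL saline and 198, 171 and 216 in IL Dex. Its PL libraries lay below the IL libraries by a little with saline (−0.17, SE 0.11, edgeR adjusted p 0.287) and by more with Dex (−0.53, SE 0.11, edgeR adjusted p 0.00391).

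Of the 6 outer dynein arm genes, 3 were called lower in PL with saline and 1 with Dex. Dnah5, a heavy chain whose loss causes primary ciliary dyskinesia, had the highest mean CPM of the 6 and differed little, at 18.1, 22.5 and 18.7 CPM in PL saline, 14.6, 21.04 and 17.4 in PL Dex, 23.1, 21.4 and 20.9 in IL saline and 20.7, 20.3 and 17.5 in IL Dex. Dnah11, another outer arm heavy chain, was at 0.304, 1.17 and 0.483 CPM in PL saline, 0.272, 1.31 and 0.136 in PL Dex, 9.36, 18.9 and 4.52 in IL saline and 6.77, 21.8 and 4.33 in IL Dex. In each group its library numbered 2 was the highest, and the log2 difference was −3.98 with saline (SE 0.95, edgeR adjusted p 0.0183) and −4.24 with Dex (SE 1.02, edgeR adjusted p 0.0347). The saline call was lost without any one PL saline library (edgeR adjusted p 0.0526 to 0.0696). The Dex call was lost without any one PL Dex library, IL Dex 1, IL saline 1 or PL saline 3 (0.0514 to 0.147), and without the low-count filter (0.088). Exon bases of Dnah11 are shared with Cdca7l on the other strand.

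Dnah17, a heavy chain known mainly from sperm flagella (ENSMUSG00000033987, chromosome 11, 118021723 to 118130634, minus strand), was at 3.95, 4.68 and 4.11 CPM in PL saline, 10.1, 12.5 and 7.32 in PL Dex, 11.6, 9.96 and 9.34 in IL saline and 13.5, 12.3 and 10.2 in IL Dex. Its 3 PL saline libraries lay below all 9 others (−1.27, SE 0.22, edgeR adjusted p 0.000738 against IL saline), whereas with Dex the regions overlapped (−0.26, edgeR adjusted p 0.56). Exons of Dnah17 overlap those of Pgs1 and Gm11738 on the other strand, and the counts carry no strand, so reads from the shared bases cannot be told apart. Dnai2, which encodes an intermediate chain, was at 1.06, 1.41 and 1.33 CPM in PL saline, 1.91, 1.45 and 1.08 in PL Dex, 3.60, 2.84 and 2.74 in IL saline and 2.85, 2.40 and 3.50 in IL Dex. It was called lower in PL saline (−1.25, SE 0.34, edgeR adjusted p 0.0164), but not without IL saline 1 (edgeR adjusted p 0.0637) or PL saline 2 (0.0506). Dnah9, a heavy chain, had group means of 13.2 CPM (PL saline) to 21.2 CPM (IL saline) and was not called. Nor was Dnai1, an intermediate chain, with group means of 1.53 (PL Dex) to 2.64 CPM (IL Dex).

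Of the 8 inner dynein arm heavy chains, 6 were called lower in PL with saline and 4 with Dex. Dnah1, the highest of them by CPM, was at 11.4, 17.7 and 11.8 CPM in PL saline, 15.7, 16.6 and 9.49 in PL Dex, 27.2, 25.8 and 20.7 in IL saline and 19.2, 23.7 and 23.98 in IL Dex. It was called with saline (−0.84, SE 0.20, edgeR adjusted p 0.00683) and with Dex (−0.69, SE 0.21, edgeR adjusted p 0.0469). The Dex call was lost in 8 of the 12 fits without 1 library: IL Dex 2 or 3, any one IL saline library, PL Dex 1 or 3, or PL saline 3 (edgeR adjusted p 0.0504 to 0.199).

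Dnah6 (ENSMUSG00000052861, chromosome 6, 73017606 to 73221651, minus strand), which encodes a single-headed inner arm chain, had the smallest p of the 40 genes in the saline region comparison. Its levels were 1.06, 1.52 and 0.845 CPM in PL saline, 2.99, 3.92 and 1.22 in PL Dex, 17.4, 15.8 and 8.75 in IL saline and 11.1, 11.1 and 5.53 in IL Dex. Every PL library lay below every IL library, and the log2 difference was −3.58, SE 0.41 with saline (edgeR adjusted p 2.78e-05) and −1.74, SE 0.38 with Dex (edgeR adjusted p 0.00796). Dnah12, of the same kind, was at 1.22, 1.41 and 1.57 CPM in PL saline, 1.22, 0.726 and 1.35 in PL Dex, 9.62, 10.8 and 6.13 in IL saline and 11.8, 6.15 and 3.60 in IL Dex. Its region difference was −2.64, SE 0.40, edgeR adjusted p 0.000187 with saline and −2.63, SE 0.43, edgeR adjusted p 0.000793 with Dex.

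Dnah3, another inner arm chain, was at 2.28, 1.52 and 3.26 CPM in PL saline, 4.90, 2.90 and 3.12 in PL Dex, 11.96, 10.5 and 7.26 in IL saline and 9.09, 8.70 and 6.00 in IL Dex. It was called with saline (−2.06, SE 0.31, edgeR adjusted p 0.000181) and with Dex (−1.10, SE 0.30, edgeR adjusted p 0.0312), the latter not without IL Dex 1 or 2 or PL Dex 2 or 3 (edgeR adjusted p 0.0871 to 0.12). Dnah2 and Dnah10, the chains of the double-headed inner arm, passed the threshold with saline. Dnah2 was at 3.95, 5.74 and 3.86 CPM in PL saline, 5.58, 10.3 and 3.39 in PL Dex, 19.2, 17.9 and 9.58 in IL saline and 11.9, 13.4 and 9.69 in IL Dex (−1.77, SE 0.33, edgeR adjusted p 0.00172 with saline). Dnah10 was at 1.67, 3.16 and 3.14 CPM in PL saline, 4.08, 6.24 and 1.90 in PL Dex, 13.6, 11 and 7.08 in IL saline and 10.9, 10.1 and 5.17 in IL Dex (−1.95, SE 0.38, edgeR adjusted p 0.00216 with saline). In both, the highest PL Dex library, numbered 2, exceeded the lowest IL Dex library. Dnah7a and Dnah7b are near-identical copies between which reads may be split uncertainly. They were not called, with group means of 2.46 to 3.61 CPM and 12.4 to 16.98 CPM.

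Of 7 radial spoke and central pair genes, 5 were called lower in PL with saline and 1 with Dex. Hydin (ENSMUSG00000059854, chromosome 8, 110266977 to 110610253, plus strand), a giant central pair protein whose loss causes hydrocephalus in mice, was at 1.52, 2.34 and 1.45 CPM in PL saline, 1.63, 3.05 and 1.49 in PL Dex, 10.9, 12.5 and 7.08 in IL saline and 9.09, 10.7 and 6.18 in IL Dex. The log2 difference was −2.50, SE 0.33 with saline (edgeR adjusted p 5.87e-05) and −2.05, SE 0.34 with Dex (edgeR adjusted p 0.000757), and both calls held in each of the 12 fits without 1 library. Spag16, another central pair protein, was at 0.152, 0.703 and 0.241 CPM in PL saline, 0.136, 1.60 and 0 in PL Dex, 3.69, 3.25 and 1.96 in IL saline and 2.32, 2.25 and 1.48 in IL Dex. It was called with saline (−2.91, SE 0.70, edgeR adjusted p 0.0075), and with Dex its regions overlapped through PL Dex 2.

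Rsph1, of the radial spoke head, was at 1.06, 1.64 and 0.966 CPM in PL saline, 2.04, 1.89 and 1.22 in PL Dex, 3.33, 3.46 and 2.62 in IL saline and 2.32, 2.10 and 1.57 in IL Dex. The saline call (−1.33, SE 0.36, edgeR adjusted p 0.0141) was lost without IL saline 2 (edgeR adjusted p 0.0604) or PL saline 3 (0.058). Cfap46, of the central pair, was at 6.68, 4.92 and 6.52 CPM in PL saline, 7.89, 8.42 and 4.88 in PL Dex, 13.04, 12.7 and 10.1 in IL saline and 13.7, 10.7 and 7.84 in IL Dex. Its saline call (−0.98, SE 0.24, edgeR adjusted p 0.0078) was lost without PL saline 2 (0.0566). Cfap54, also of the central pair and the most abundant of the 7 by CPM, was at 25.96, 24.01 and 24.9 CPM in PL saline, 20.9, 33.5 and 21.96 in PL Dex, 33.1, 33.8 and 28.3 in IL saline and 35.6, 29.7 and 26.2 in IL Dex and was not called (−0.35, edgeR adjusted p 0.148 with saline). Rsph4a, of the spoke head, had group means of 4.73 to 6.31 CPM and was not called either. Spag17, a central pair protein, is described below with the genes near 0 in PL.

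Ccdc39 and Ccdc40, the coiled-coil proteins that together set the spacing of arms and spokes along the axoneme, were called in opposite directions with saline. Ccdc40 was at 1.06, 2.11 and 1.33 CPM in PL saline, 1.63, 2.90 and 1.35 in PL Dex, 4.86, 4.77 and 3.21 in IL saline and 2.14, 3.75 and 2.31 in IL Dex and was lower in PL saline (−1.48, SE 0.37, edgeR adjusted p 0.00899). Ccdc39 was at 40.7, 39.8 and 39.9 CPM in PL saline, 27.1, 31.8 and 27.4 in PL Dex, 32.02, 30.7 and 28.98 in IL saline and 24.9, 32.9 and 27.6 in IL Dex, with its 3 PL saline libraries above all 9 others. It was the 1 gene of the 40 called higher in PL saline (0.39, SE 0.12, edgeR adjusted p 0.0338). That call was lost without any one library of PL saline or IL saline (edgeR adjusted p 0.0655 to 0.128), without the low-count filter (0.0937) and with the GC correction (0.53). Ccdc39 shares exon bases with Ttc14 on the other strand. Drc1, a scaffold of the nexin link, was not called, with group means of 11.2 to 13.7 CPM.

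Of 6 other axonemal and flagellar genes, 3 were called lower in PL with saline and 1 with Dex. Cfap44, which tethers inner arm motor domains, was at 9.57, 8.78 and 7.61 CPM in PL saline, 7.48, 17.6 and 6.24 in PL Dex, 26.9, 24.1 and 18.3 in IL saline and 20.1, 19.5 and 11.3 in IL Dex and was called with saline (−1.42, SE 0.32, edgeR adjusted p 0.00672). Its partner Cfap43 was at 4.71, 3.87 and 3.02 CPM in PL saline, 2.86, 1.89 and 1.90 in PL Dex, 9.62, 6.64 and 4.40 in IL saline and 6.77, 4.95 and 5.63 in IL Dex. With saline the regions of Cfap43 overlapped (−0.83, edgeR adjusted p 0.0573), and with Dex PL was called lower (−1.37, SE 0.34, edgeR adjusted p 0.0145), but not without PL Dex 3 (edgeR adjusted p 0.0618). Cfap43 shares exon bases with Itprip and Gm22240 on its own strand.

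Ak7, an adenylate kinase of the axoneme, was at 1.06, 0.351 and 0.121 CPM in PL saline, 0.816, 0.871 and 0.813 in PL Dex, 4.59, 3.81 and 1.37 in IL saline and 2.85, 2.25 and 1.29 in IL Dex and was called with saline (−2.71, SE 0.59, edgeR adjusted p 0.00349). Cfap65 was at 7.59, 7.38 and 6.52 CPM in PL saline, 9.39, 16.1 and 6.78 in PL Dex, 13.8, 14.5 and 9.76 in IL saline and 9.09, 10.2 and 6.83 in IL Dex. It was called lower in PL saline (−0.82, SE 0.26, edgeR adjusted p 0.0324), but not without IL saline 1 or 2 or any one PL saline library (edgeR adjusted p 0.0572 to 0.121), nor with the GC correction (0.104). Cfap126, and Tekt1, a tektin of the microtubule wall, had group means between 0.487 CPM (Tekt1, PL saline) and 1.21 CPM (Cfap126, IL Dex) and were not called.

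Both rootlet genes were called lower in PL with saline. Crocc (rootletin, ENSMUSG00000040860, chromosome 4, 141016637 to 141060550, minus strand) forms the fibrous rootlet under the basal body and also links centrioles in cells without motile cilia. It was at 35.1, 25.4 and 31.5 CPM in PL saline, 56.6, 63.1 and 33.1 in PL Dex, 84.1, 72.3 and 76.3 in IL saline and 67.3, 67.5 and 65.95 in IL Dex. The log2 difference from IL was −1.34, SE 0.17, edgeR adjusted p 7.66e-05 with saline and −0.40, SE 0.17, edgeR adjusted p 0.203 with Dex, and the regions did not overlap in either treatment. Crocc2, a related gene, is among those near 0 in PL.

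**Figure D2:**
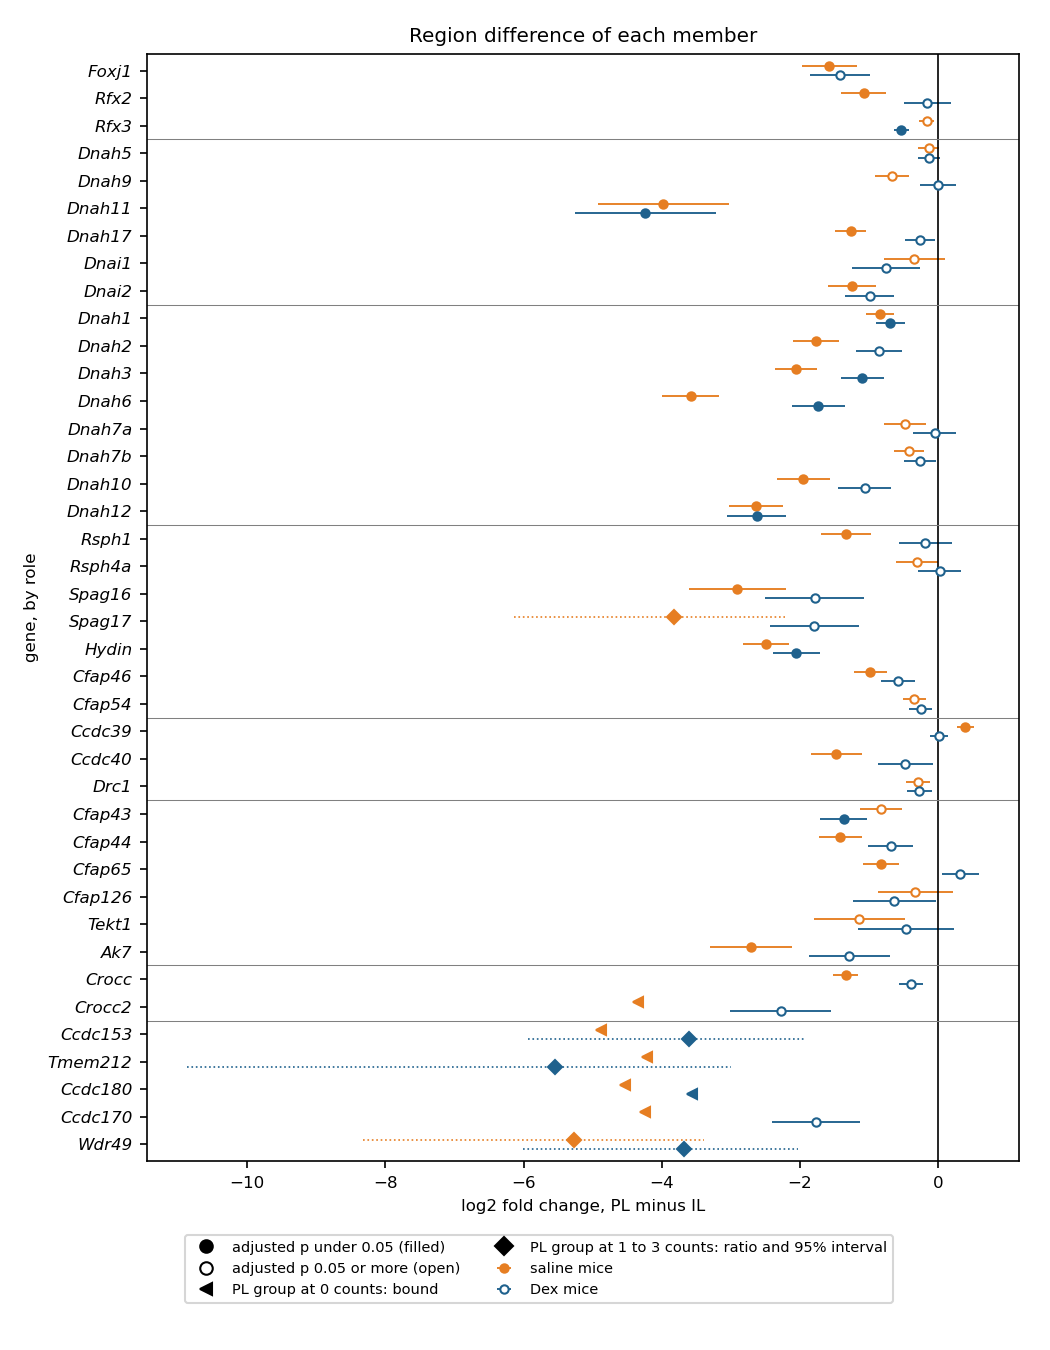
Log2 difference between PL and IL (x axis) of each of the 40 genes (y axis, by role) with saline (orange) and Dex (blue), where bars are SE, filled points passed the threshold, triangles are bounds where the 3 PL libraries hold 0 counts, and diamonds are ratios from 1 to 3 PL counts with 95% counting intervals. In saline mice every gene but Ccdc39 lies left of 0, and the points furthest left are Dnah11 and the bounds and ratios of the genes near 0 in PL.

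The genes nearest to absence in PL were Crocc2, Ccdc153, Tmem212, Ccdc180, Ccdc170, Wdr49 and Spag17, each with at most 3 counts over the 3 PL saline libraries, which hold 24419523 counts. All but Crocc2 and Spag17 are ependymal markers whose roles are less well known. Summed over the 7 genes, PL saline held 2, 1 and 2 counts, PL Dex 16, 9 and 4, IL saline 252, 327 and 238, and IL Dex 72, 87 and 102. In CPM these sums were 0.117 to 2.18 in PL and 9.41 to 22.7 in IL. A total of 0 counts in PL saline allows up to 3 counts, or 0.128 CPM, and this limit covers counting error only.

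Ccdc153 (ENSMUSG00000070306, chromosome 9, 44240676 to 44247306, plus strand) had 0, 0 and 0 counts in PL saline, 1, 1 and 1 in PL Dex, 44, 65 and 51 in IL saline and 18, 16 and 5 in IL Dex. PL was at least 29.5-fold lower than IL with saline, and lower by a ratio of 12.2 (95% counting interval 3.86 to 61.5) with Dex. Tmem212 (ENSMUSG00000043164, chromosome 3, 27866066 to 27896368, minus strand), whose name marks it as a membrane protein, had 0, 0 and 0 counts in PL saline, 1, 0 and 0 in PL Dex, 21, 37 and 43 in IL saline and 15, 15 and 20 in IL Dex. PL was at least 18.6-fold lower with saline and lower by a ratio of 46.8 (8.02 to 1880) with Dex, where Tmem212 had the smallest p of the 40 genes.

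Ccdc180 (ENSMUSG00000035539, chromosome 4, 45890303 to 45950774, plus strand) was the 1 gene of the 40 with 0 counts in all 6 PL libraries, against 50, 38 and 38 counts in IL saline and 7, 6 and 25 in IL Dex. PL was at least 23.2-fold lower with saline and at least 11.8-fold lower with Dex. Ccdc170 (ENSMUSG00000019767, chromosome 10, 4482502 to 4562231, plus strand) had 0, 0 and 0 counts in PL saline, 5, 2 and 1 in PL Dex, 30, 44 and 29 in IL saline and 7, 5 and 19 in IL Dex. PL was at least 19-fold lower with saline, and with Dex the libraries did not overlap but the difference was not called (−1.77, SE 0.64, edgeR adjusted p 0.112).

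Wdr49, a WD repeat gene (ENSMUSG00000104301, chromosome 3, 75274988 to 75482156, minus strand), had 1, 0 and 1 counts in PL saline, 1, 1 and 1 in PL Dex, 49, 62 and 29 in IL saline and 7, 22 and 12 in IL Dex. PL was lower by a ratio of 38.7 (95% counting interval 10.5 to 322) with saline and 12.8 (4.08 to 64.5) with Dex. Crocc2 (ENSMUSG00000084989, chromosome 1, 93168725 to 93231072, plus strand) had 0, 0 and 0 counts in PL saline, 3, 4 and 0 in PL Dex, 30, 56 and 24 in IL saline and 10, 15 and 11 in IL Dex, at least 20.3-fold lower in PL with saline. Spag17 had 1, 1 and 1 counts in PL saline, 5, 1 and 1 in PL Dex, 28, 25 and 24 in IL saline and 8, 8 and 10 in IL Dex. Its saline ratio was 14.2 (4.67 to 70.2), lower in PL.

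These 7 genes were picked for their low counts in PL saline, and all 7 reached the low-count filter only through IL. A lower value in PL was therefore largely set by the choice, and the calls are a description. All 7 were called lower in PL with saline, with edgeR adjusted p from 7.66e-05 (Tmem212) to 0.000901 (Spag17). Each of these calls held in all 12 fits that left out 1 library. With Dex, Ccdc153, Tmem212, Ccdc180 and Wdr49 were called (edgeR adjusted p 0.0087, 0.000495, 0.00207 and 0.00572), again in all 12. Without PL Dex 1 and 2 and PL saline 1, which leaves 1 PL Dex library, the Dex calls of Ccdc153 and Wdr49 were lost. Without PL Dex 3 and PL saline 2 and 3, which leaves 1 PL saline library, the saline call of Spag17 was lost. With 1 library in an arm, a lost call cannot be told apart from the loss of libraries. Every IL library lay above every PL library in each of the 7 genes.

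**Figure D3:**
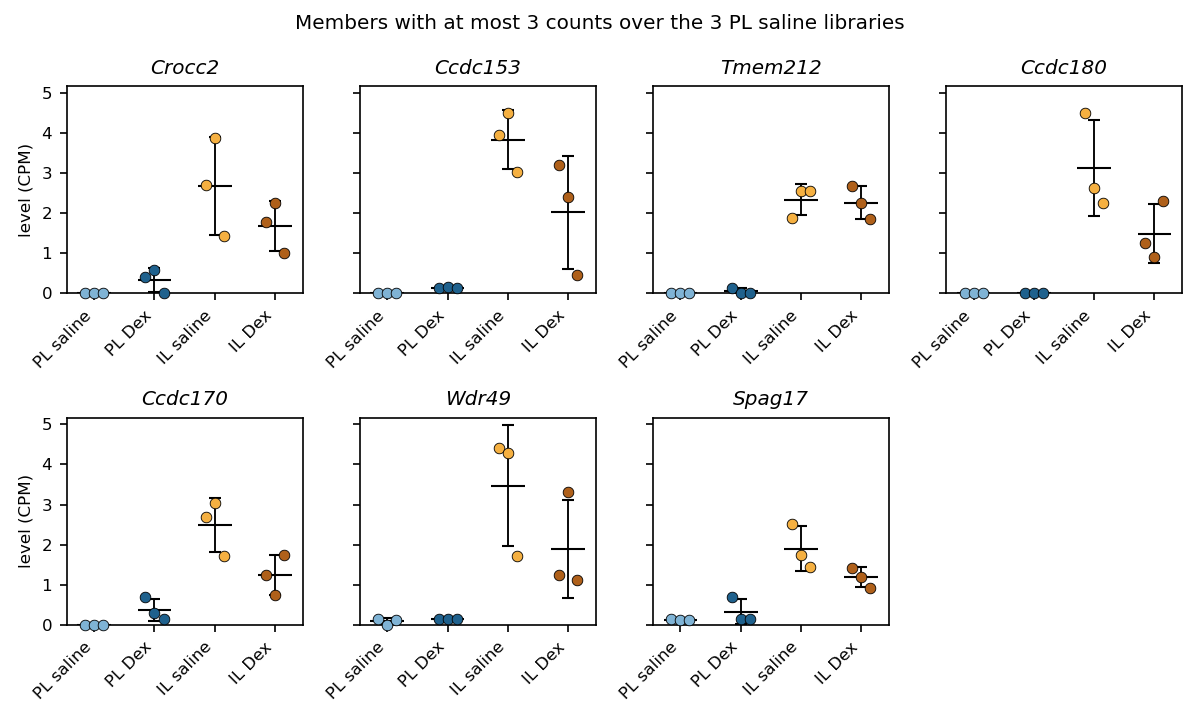
CPM (y axis) of the 7 genes with at most 3 counts over the PL saline libraries, by group (x axis), where points are libraries and bars the mean and SD of 3. PL points lie on or near 0, and every IL point lies above every PL point of the same gene.

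Markers of tissue next to the cortex moved with region in the same direction as the ependymal genes, and their part in the result was not tested. Of all genes tested, 8.7% were called lower in PL with saline and 3.54% with Dex. The 6 septal genes summed to 49.4 to 92.2 CPM in PL saline and 156.2 to 254.4 CPM in IL saline, and all 6 were called lower in PL in both treatments, among them Zic4 (−2.49, edgeR adjusted p 6.89e-05 with saline). The 9 striatal neuron genes summed to 325 to 913.8 CPM in PL saline and 1352 to 1684 CPM in IL saline, with 5 called lower in each treatment, among them Ppp1r1b (−2.08, edgeR adjusted p 0.00594 with saline). The 12 genes of subventricular progenitors and neuroblasts summed to 238.7 to 265.1 CPM in PL saline and 348 to 450.4 CPM in IL saline, with 8 called lower with saline, among them Igfbpl1 (−3.51, edgeR adjusted p 0.000253), and 7 with Dex.

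The 15 choroid plexus genes were low throughout, at 10.5 to 17.9 CPM in PL saline and 20 to 31.2 CPM in IL saline in sum. Over all genes tested, 8.7% were called lower and 9.97% higher in PL with saline, and 3.54% lower and 3.8% higher with Dex. Of the 7 choroid plexus genes tested, 2 were called lower in each treatment (Prlr with both, −2.21, edgeR adjusted p 0.00087 with saline). Ttr, the defining choroid plexus transcript, had means of 0.723 CPM in PL saline and 1.37 CPM in IL saline. Cortical excitatory neuron genes ran the other way, at 6245 to 7175 CPM in PL saline and 4382 to 5188 CPM in IL saline, with 6 of 10 called higher in PL with saline, led by Neurod6 (2.07, edgeR adjusted p 9.9e-07), and 7 with Dex. Of these 5 lists, 1 gene (Lmx1a, choroid plexus) was at 0 in a whole group, in IL saline and in PL Dex.

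Other cell types are given for saline mice, where edgeR called 9.97% of all genes tested higher in PL and 8.7% lower. In sum the astrocyte genes were at 6905 to 7615 CPM in PL saline and 5917 to 6293 CPM in IL saline. Of 12 astrocyte genes 1 was called higher in PL (Slc1a2, 0.34, edgeR adjusted p 0.0241) and 2 lower (Gfap, −1.002, edgeR adjusted p 0.000272, and Fgfr3, −0.42, edgeR adjusted p 0.00979). None of 10 oligodendrocyte genes was called by edgeR or had an unadjusted p under 0.05. Of 10 mural and meningeal genes tested 1 was called lower (Pdgfrb), of 7 endothelial genes 1 higher (Slco1a4) and of 8 microglia genes 1 lower (C1qa).

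**Figure D4:**
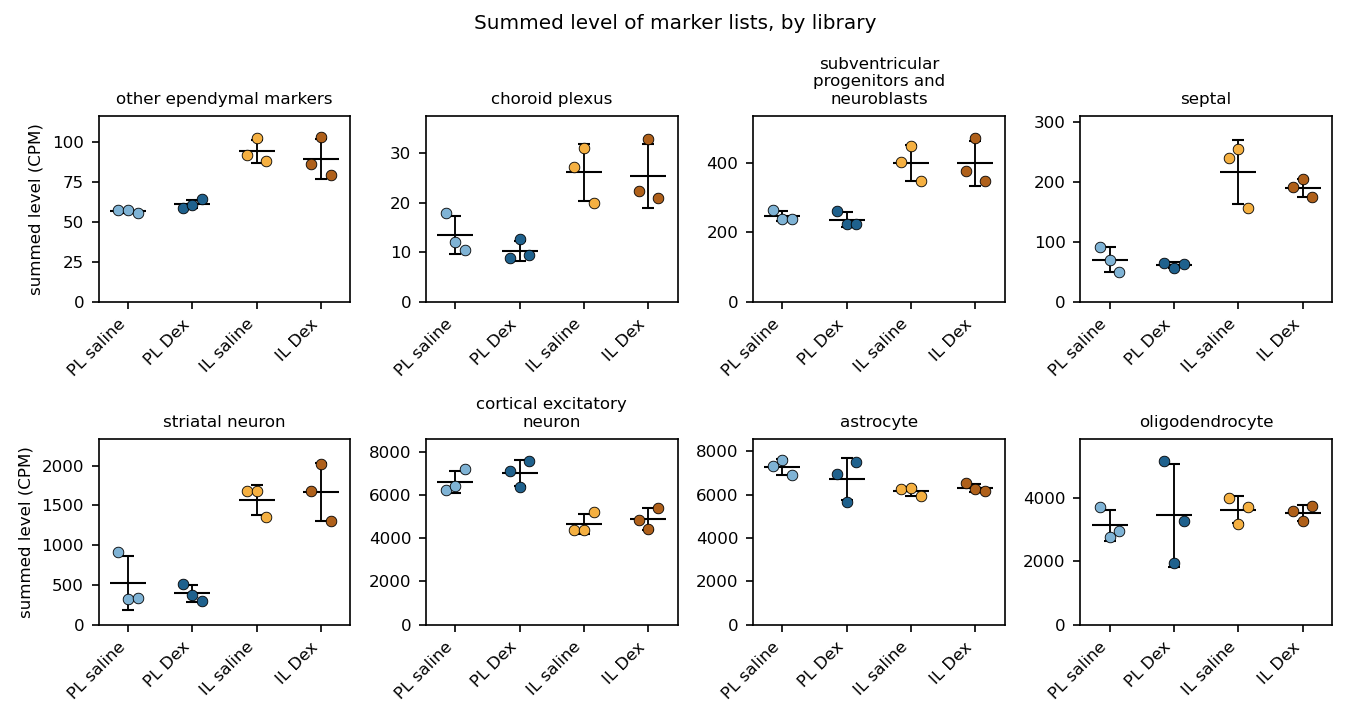
Summed CPM (y axis, from 0) of 8 marker lists in each library, by group (x axis), where points are libraries and bars the mean and SD of 3. The other ependymal, choroid plexus, subventricular, septal and striatal sums are higher in every IL library than in every PL library. The cortical excitatory neuron sums are lower in IL, and the astrocyte and oligodendrocyte sums overlap between regions over both treatments. With saline alone the astrocyte sums are higher in every PL library than in every IL library.

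Other genes of cilia and ependyma did not all follow the 40. Over all genes tested, 8.7% were called lower and 9.97% higher in PL with saline, and 3.54% lower and 3.8% higher with Dex. Of 75 further motile cilia genes, 60 were tested. With saline 10 were called lower and 3 higher in PL (median log2 difference −0.23), and with Dex 1 lower and 3 higher (median −0.18). Those called with saline included Spef2, a central pair protein (−2.17, edgeR adjusted p 0.000971), Ccdc114, of the outer arm docking complex (−1.99, edgeR adjusted p 0.00302), Kif27, a kinesin (−1.15, edgeR adjusted p 0.00463), and, higher in PL, Lrrc6, a dynein assembly factor (1.14, edgeR adjusted p 0.00142). Of 13 other ependymal markers tested, 6 were called lower with saline and 0 higher (median −1.03), and 2 lower with Dex (median −1.05). They included Cd24a, a surface protein of ependymal cells called in both (−1.05, edgeR adjusted p 0.00202 with saline), and Vim, the intermediate filament vimentin (−0.72, edgeR adjusted p 0.00316 with saline).

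Of 7 multiciliation regulators tested, 1 was called lower with saline (Myb, −1.74, edgeR adjusted p 0.0176), where 8.7% of all genes were. The 50 primary cilium genes were split, with 7 called higher (9.97% of all genes) and 7 lower (8.7%) in PL saline and a median of 0.035. Among them were Gpr161 and Mchr1, receptors of neuronal primary cilia, lower in PL (−1.22, edgeR adjusted p 8.58e-05, and −1.21, edgeR adjusted p 0.000161), and Kifap3, a subunit of the intraflagellar transport kinesin, higher (0.56, edgeR adjusted p 0.000953).

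Promoter sequences are shown because RFX factors and Foxj1 bind known motifs in promoters of cilia genes. Of the 40 genes, 34 had an entry among RefSeq promoters (GRCm38.p6), with 39 windows, and the 250 bases before each start were searched on both strands. The X-box bound by RFX factors was taken as the arms GTNNCC and NGNAAC with 2 bases between them. It was present in 4 windows (10.3%), against 1.8% of all 32851 windows. The 4 stretches below, of the gene's strand, hold it in capitals:
Spag16, chr1:69826859-69826888, plus strand: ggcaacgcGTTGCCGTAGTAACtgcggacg
Hydin, chr8:110266948-110266976, plus strand: actctgcgGTTGCTGTGGCAACagatggt
Cfap44, chr16:44394764-44394793, plus strand: ggagggacGTTGCTATGGCAACcgcagtaa
Dnah17, chr11:118129357-118129386, minus strand: acgcccttGTCACCAGCGCAACcacagata
The match ends 89 bases before the start of Spag16, 7 before that of Hydin, 13 before that of Cfap44 and 145 before that of Dnah17. The start used for Dnah17 lies inside the span of the gene given above, and its window overlaps an annotated exon of Dnah17. In Hydin and Cfap44 it reads in the stated order on the other strand. All 4 genes are among the 27 of the 40 called lower in PL with saline, and a link of the motif to the region difference was not tested.

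The single arm GTTGCC, which the X-boxes of Spag16, Hydin and Cfap44 contain, occurred in 15 of the 39 windows (38.5%, against 10.4% of all windows). The forkhead core TGTTTA occurred in 12 (30.8%, against 12% of all windows). At least 1 of the 3 motifs was present in 26 (66.7%, against 22.3%). A match describes the letters in the window and not binding.

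Whole upstream windows are shown for Spag16, which holds an X-box, and for Ccdc180 and Tmem212, which had 0 counts in PL saline. Each is the 250 bases before the start on the gene's strand, overlaps no annotated exon, and has its motif matches in capitals:
Spag16, chr1:69826720-69826969, plus strand: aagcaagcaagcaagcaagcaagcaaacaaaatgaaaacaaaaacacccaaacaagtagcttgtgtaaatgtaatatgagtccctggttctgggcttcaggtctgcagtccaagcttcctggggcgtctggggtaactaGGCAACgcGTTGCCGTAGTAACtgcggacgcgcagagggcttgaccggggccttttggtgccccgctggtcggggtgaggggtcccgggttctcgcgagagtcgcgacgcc
Ccdc180, chr4:45890053-45890302, plus strand: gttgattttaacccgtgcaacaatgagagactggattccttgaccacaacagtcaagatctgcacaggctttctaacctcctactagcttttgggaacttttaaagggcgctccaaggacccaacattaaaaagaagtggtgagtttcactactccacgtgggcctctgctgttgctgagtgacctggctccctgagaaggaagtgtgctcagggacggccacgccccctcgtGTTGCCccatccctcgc
Tmem212, chr3:27896369-27896618, minus strand: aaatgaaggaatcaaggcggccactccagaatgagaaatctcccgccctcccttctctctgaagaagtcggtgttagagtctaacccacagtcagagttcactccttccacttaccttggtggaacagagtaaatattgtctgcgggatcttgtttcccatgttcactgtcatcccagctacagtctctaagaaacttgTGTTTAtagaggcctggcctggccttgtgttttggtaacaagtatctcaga
Spag16 carries a further single arm on the other strand just upstream of its X-box, Ccdc180 a single arm that ends 11 bases before its start, and Tmem212 a forkhead core that ends 45 bases before its start.

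In PL, edgeR called 0 of the 40 genes between Dex and saline, where 0.02% of all genes tested were called. At an unadjusted p under 0.05 edgeR had 9, 6 higher with Dex (6.97% of all genes) and 3 lower (6.93%; 13.9% in either direction). DESeq2 called 3 of the 17 to which it gave an adjusted p, where it called 1.12% of all genes given one: Dnah17 and Crocc higher (0.455% of all genes) and Ccdc39 lower (0.663%). The median log2 change was 0.40, against −0.002 for all genes, with 29 genes above 0, 10 below and Ccdc180 at 0 counts in both groups. PL Dex and PL saline did not overlap for 4 genes higher with Dex (Dnah17, Rsph4a, Ccdc153 and Ccdc170, where 7.57% of all genes were) and 3 lower (6.82% of all genes). Between same-numbered libraries, 12 of the 40 were higher with Dex in all 3 pairs (15.9% of all genes) and 4 were lower (14.5%).

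Dnah17 had the smallest p of the 40, and its values by library are those given above (1.22, SE 0.23, edgeR adjusted p 0.0774). It passed the threshold with DESeq2 (adjusted p 0.00251), without the low-count filter (edgeR adjusted p 0.00216) and without PL Dex 3 (0.00541). Crocc overlapped between treatments through PL Dex 3 (0.73, SE 0.18, edgeR adjusted p 0.174). It passed with DESeq2 (adjusted p 0.0255), without the low-count filter (edgeR adjusted p 0.000422) and without PL Dex 3 (0.0022). Ccdc170 also passed without PL Dex 3 (edgeR adjusted p 0.0404). Dnah6 (1.22, SE 0.49, edgeR adjusted p 0.301) and Cfap65 (0.58, SE 0.27, edgeR adjusted p 0.346) were 2 more of the 6 genes with an unadjusted p under 0.05 and a positive change.

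Among genes near 0 in PL saline, a few had more counts with Dex. They were picked for their low PL saline counts, so a change could hardly go other than up. The counts are therefore a description. Ccdc170 had 0 counts in PL saline and 8 in PL Dex, 2.89-fold the limit of 3 counts. Crocc2 had 0 and 7, 2.53-fold that limit. These folds leave out the counting error of the PL Dex counts, and neither gene was called (edgeR adjusted p 0.216 and 0.275). For Spag17 the counts were 3 and 7, a ratio of 2.53 whose 95% counting interval of 0.577 to 15.1 includes 1. Ccdc153 (0 and 3 counts), Tmem212 (0 and 1) and Wdr49 (2 and 3) were at or under the limit of 3 counts in both groups.

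The 3 genes with a negative change and an unadjusted p under 0.05 in PL were Ccdc39 (−0.48, SE 0.13, edgeR adjusted p 0.19), Rfx3 (−0.31, SE 0.11, edgeR adjusted p 0.249) and Cfap43 (−0.79, SE 0.35, edgeR adjusted p 0.324). In each, all 3 Dex libraries lay below all 3 saline libraries. For Foxj1 the treatments overlapped (−0.16, SE 0.47, edgeR adjusted p 0.906).

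The positive median in PL differed with the libraries used. Each library's median over the 40 genes, as a share of the gene's IL saline mean, was 34.9%, 39.6% and 38.5% in PL saline and 45.4%, 59.7% and 31.4% in PL Dex. PL Dex 1 and 2 were thus above all 3 saline libraries and PL Dex 3 below them. The median log2 change was 0.325 without PL Dex 1, 0.096 without PL Dex 2 and 0.553 without PL Dex 3, and 0.303 to 0.42 without any one PL saline library. Without PL Dex 1 and 2 and PL saline 1 together it was −0.189, and without the other 3 PL libraries 0.559. Each of these fits leaves 1 library in an arm and removes libraries of both treatments, so neither value is that of the Dex libraries alone. Gene GC content had a Spearman correlation with the log2 change of 0.529 over 19992 genes tested and 0.211 over the 40 genes, and its part in the result was not tested beyond the GC correction, with which the median of the 40 was 0.314 and 0 were called.

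In IL the 40 genes leaned towards lower values with Dex, without a call. With edgeR 0 of the 40 passed the threshold (0% of all genes tested), as with DESeq2, and 3 had an unadjusted p under 0.05 (1.06% of all genes), all 3 lower with Dex (0.759%). The median log2 change was −0.26, against 0.006 for all genes, with 35 of 40 below 0. Leaving out 1 library moved this median between −0.462 (without IL Dex 2) and −0.171 (without IL Dex 3). It was −0.182 without IL saline 1 and −0.447 without IL saline 3. Between same-numbered libraries, 19 of the 40 were lower with Dex in all 3 pairs (13.7% of all genes) and 1 was higher (15.2%). IL Dex lay wholly below IL saline for 5 genes (Rfx2, Dnah5, Rsph1, Spag17 and Crocc, where 3.98% of all genes did) and wholly above it for 0 (3.8%).

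Cfap65 had the smallest p in IL (−0.56, SE 0.26, unadjusted p 0.0424 and adjusted p 1 with edgeR). Ccdc153 had means of 3.83 ± 0.739 CPM with saline and 2.02 ± 1.41 CPM with Dex (SD, n = 3), and Ccdc180 of 3.13 ± 1.20 and 1.48 ± 0.732 CPM. In all 3 genes the treatments overlapped. The libraries numbered 3 had the lowest medians in IL, 78.6% of the IL saline mean with saline and 64.3% with Dex. Those numbered 1 and 2 had 112% and 106% with saline and 86.3% and 88.5% with Dex.

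**Figure D5:**
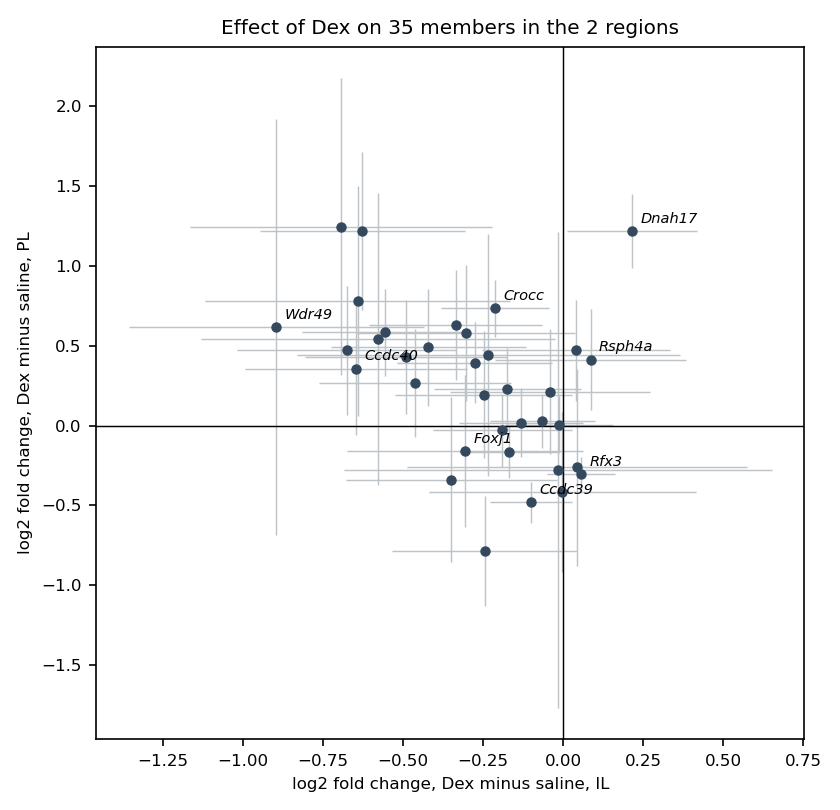
Log2 change with Dex in IL (x axis) and in PL (y axis) of the 35 genes with counts in PL saline, where bars are SE. Most points lie left of 0 in IL and above 0 in PL, with Dnah17 above 0 in both and Rfx3 below 0 in PL and near 0 in IL.

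Whether the effect of Dex differed between PL and IL was tested with the interaction of region and Dex. With edgeR 0 of the 40 passed the threshold (0% of all genes tested), as with DESeq2, and 11 had an unadjusted p under 0.05 (6.73% of all genes), 9 positive (3.45%) and 2 negative (3.28%). Crocc2, Ccdc153 and Ccdc170, among the 9, had 0 counts in PL saline, so their change in PL could hardly go other than up. The median interaction (effect in PL minus effect in IL) was 0.70, against 0 for all genes, with 34 of 40 above 0. Ccdc180 is counted among the 34 although it had 0 counts in all 6 PL libraries and so no measured effect there. The median was 0.661, 0.389 and 0.994 without PL Dex 1, 2 and 3 in turn. It was 0.035 without PL Dex 1 and 2 and PL saline 1 together, and 0.874 without the other 3 PL libraries. Both of the latter fits leave 1 library in a PL arm. Crocc had the smallest p (0.95, SE 0.24, unadjusted p 0.0011 and adjusted p 0.716 with edgeR). It passed the threshold without the low-count filter (edgeR adjusted p 0.0118) and without PL Dex 3 (0.0206). Dnah17 (1.00, SE 0.31), Dnah6 (1.84, SE 0.59) and Cfap65 (1.14, SE 0.37) also had positive values, and Rfx3 (−0.36, SE 0.15) and Ccdc39 (−0.38, SE 0.18) negative ones. Gene GC content had a Spearman correlation with the interaction of 0.471 over all genes tested and 0.19 over the 40. It is 63.9% in Crocc, 55.0% in Dnah17, 47.3% in Dnah6, 53.7% in Cfap65, 40.2% in Rfx3 and 39.9% in Ccdc39. With the GC correction the median interaction was 0.622, and the part of GC content was not tested further. For Dnah2 and Dnah10, called lower in PL with saline and not with Dex, the interaction was 0.91, SE 0.47 and 0.89, SE 0.55, so a change of their region difference with Dex was not shown.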

How the data were processed

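PolyA RNA of 12 samples was measured by RNA-seq. The deposited values are raw read counts per gene. Per the file headers, featureCounts 2.0.1 counted read pairs over exons by gene identifier with no strand option, on the Ensembl GRCm38 annotation, release 98. The submitters' processing notes name bcl2fastq, Trim Galore, HISAT2, SAMtools 1.8 and the build mm39. Of 55154 genes compared, 99.47% have the coordinates of GRCm38 in the count table, so GRCm38 coordinates are given. A further 12 count columns match no sample and were not used.

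Genes passing filterByExpr (20015) were scaled by TMM (factors 0.935 to 1.05) and tested with edgeR 4.0.16 (robust quasi-likelihood, R 4.3.3). All 12 libraries entered the fit with a mean for each group, which leaves 8 residual degrees of freedom. P-values were Benjamini-Hochberg adjusted over all genes tested, with a threshold of 0.05. The fit was tested on simulated counts. CPM values use TMM-scaled totals. A fold against a group at 0 counts uses a floor of 3 counts over the group, and ratio intervals are exact 95% counting intervals. Such a fold takes the other group's count as measured, without its counting error. Alternatives were DESeq2 1.42.0, its size factors, no low-count filter, a GC correction, a replicate block, a fit of only the groups compared, and single libraries left out. A pair of alternatives without 3 PL libraries each was chosen after seeing the data.

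Values in every library are given for Foxj1, the gene with the highest mean CPM of each role group, each gene past the threshold, and the smallest p of each comparison. Of other lists, up to 4 genes past the threshold are named. The 40 genes and all lists were chosen with earlier results of these data known. Replicate libraries differed by more than sampling noise (chi-square per degree of freedom 3.85 to 14.5). The labels call the replicate number a batch and do not say whether same-numbered libraries are paired. Deviations of same-numbered libraries had correlations of 0.284, 0.294 and 0.337 in IL but 0.108, 0.00858 and 0.0736 in PL. Different numbers of a region had −0.202 to 0.0711 (12 pairs). Between regions, same numbers had −0.0983 to 0.191 and different numbers −0.124 to 0.099. Of the 40 genes, 14 share exon bases with another gene, 13 of them on the other strand.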

Additional observations from a re-analysis of the deposited data

How the results depend on the processing

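Between PL Dex and PL saline the number of the 40 genes called was 0 (0.02% of all genes tested). It was 2 without the low-count filter, 3 with DESeq2 (1.12% of all genes given an adjusted p), and 0 to 3 with 1 library left out (3 without PL Dex 3). It was also above 0 without PL Dex 3, PL saline 2 and PL saline 3, which leaves 1 PL saline library. For the interaction it was 0, and 1 without the low-count filter, and 0 to 1 with 1 library left out (1 without PL Dex 3). Between PL and IL it was 28 with saline (18.7% of all genes tested) and 12 with Dex (7.34%). Without PL Dex 3, PL saline 2 and PL saline 3 these became 16 and 7, where fewer samples entered the fit, and with 1 library left out 21 to 29 and 8 to 14. Between IL Dex and IL saline it was 0, and 0 to 0 with 1 library left out. With the replicate block the counts were 0 (PL Dex), 0 (IL Dex), 30 (region, saline), 15 (region, Dex) and 0 (interaction), and with the GC correction 0, 0, 26, 12 and 0. The cause of the other changes was not tested. Shares of all genes called in these fits are not given except where stated. The counts alone therefore do not tell whether the 40 genes moved or all calls did. Of the region calls, 20 of 28 with saline and 8 of 12 with Dex held in all 12 fits without 1 library. No gene or count tested under these alternatives was called in the opposite direction. Library totals as low as 5419187 counts leave genes under about 1.2 CPM with few counts, and a difference in them may not be detectable at this depth.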
